A study of Mus musculus with 5 samples.

Results

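Blood flow drags on the inner surface of vessels, and endothelial cells sense this force. A chain of 8 genes of that response was followed here: Piezo1, a force-gated cation channel, Map2k5 and Mapk7, which encode the kinases MEK5 and ERK5, the transcription factor genes Mef2a and Mef2c, and the zinc finger transcription factor genes Klf2, Klf4 and Klf10. They were taken by symbol, and each of the 8 matched a single row of the 49315 genes in the deposited count and TPM tables.

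In the textbook order, force opens the channel and engages junctional receptors, MEK5 phosphorylates ERK5, and ERK5 activates MEF2 factors, which switch on Klf2 and Klf4. KLF2 and KLF4 keep endothelium quiescent, anticoagulant and producing nitric oxide. The same genes act outside endothelium: Mef2c in B cells and myeloid cells, Klf2 in resting T cells, Klf4 in monocytes. Klf4 also behaves as an immediate early gene in many cells, switched on within minutes of a stimulus.

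The libraries hold poly(A) RNA of endothelial cells from mouse lung (Mus musculus), taken after 28 days of infusion with angiotensin II, a peptide hormone that constricts vessels. In 2 libraries TET2 had been knocked out in endothelium (TET2KO); it is an enzyme that oxidises methylated cytosine in DNA, and 3 libraries were wild-type (WT). Both genotypes received the hormone, so no library shows the state without it. Mouse strain, age and sex, the Cre driver of the knockout, the deleted exons and how the cells were isolated are not given in the labels. The labels do not say that each library came from its own animal, so p-values measure the spread between these libraries, which may be technical.

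Total counts were 31239463 and 30035235 in the TET2KO libraries and 27346804 to 35440257 in the WT libraries. Tet2 itself had a log2 fold change of 0.02 (SE 0.19) over the whole gene, which checks no label because the deleted part is unknown. All 18 endothelial markers had counts in each of the 5 libraries. Markers of leukocytes, stroma and epithelium did too: of 13 cell type lists, only the neutrophil marker Ly6g was at 0 in any library. WT replicate 2 stood apart, at 90.9 on a first principal component that held 57.7% of the variance, with the others between -50.1 and 7.01. Its summed level of 12 macrophage markers was 21230 CPM (counts scaled to library size), against 1807 to 5027 CPM in the other libraries. Chil3 alone was 15517 CPM of that sum, against 932 to 3117 CPM in the other libraries. C1qa, C1qb and C1qc went the other way, lowest in WT replicate 2 at 10.8, 10.5 and 9.69 CPM. Every other marker of the list was highest there. The authors' deposited table of fold changes did not use the split of the labels. Its log2 values equalled, within 0.01 for 100% of the 8424 genes with a mean normalized count over 500, the ratio of WT replicate 3 and both TET2KO libraries to WT replicates 1 and 2. The labels were followed here. Log2 fold changes and overlaps of the 8 genes that rest on WT replicate 2 or WT replicate 3 are given without them too. Nearest genes, nearest marker sums, SDs and shares were computed only with no library left out. Of 35 other named pathway genes, 15 changed the sign of their log2 fold change when 1 of the 5 libraries was left out.

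The flow-sensing genes did not differ detectably between TET2KO and WT. In the edgeR quasi-likelihood fit, adjusted by Benjamini-Hochberg over 18727 genes, none of the 8 passed (adjusted p of 0.864 to 0.998), and 0% of all genes did. None had an unadjusted p under 0.05 either, beside 5.86% of all genes, and DESeq2 called none of the 8, beside 61 of the 15456 genes for which it gave an adjusted p (0.395%). Their log2 fold changes lay between -0.21 for Map2k5 and 0.25 for Klf4, with a median of -0.02, beside -0.075 for all genes tested. For 0 of the 8 did both TET2KO libraries lie above all WT libraries in CPM, and for 1 of 8, Map2k5, both lay below. Over all genes tested, 12.4% lay above and 12.4% below in that way.

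**Figure D1:**
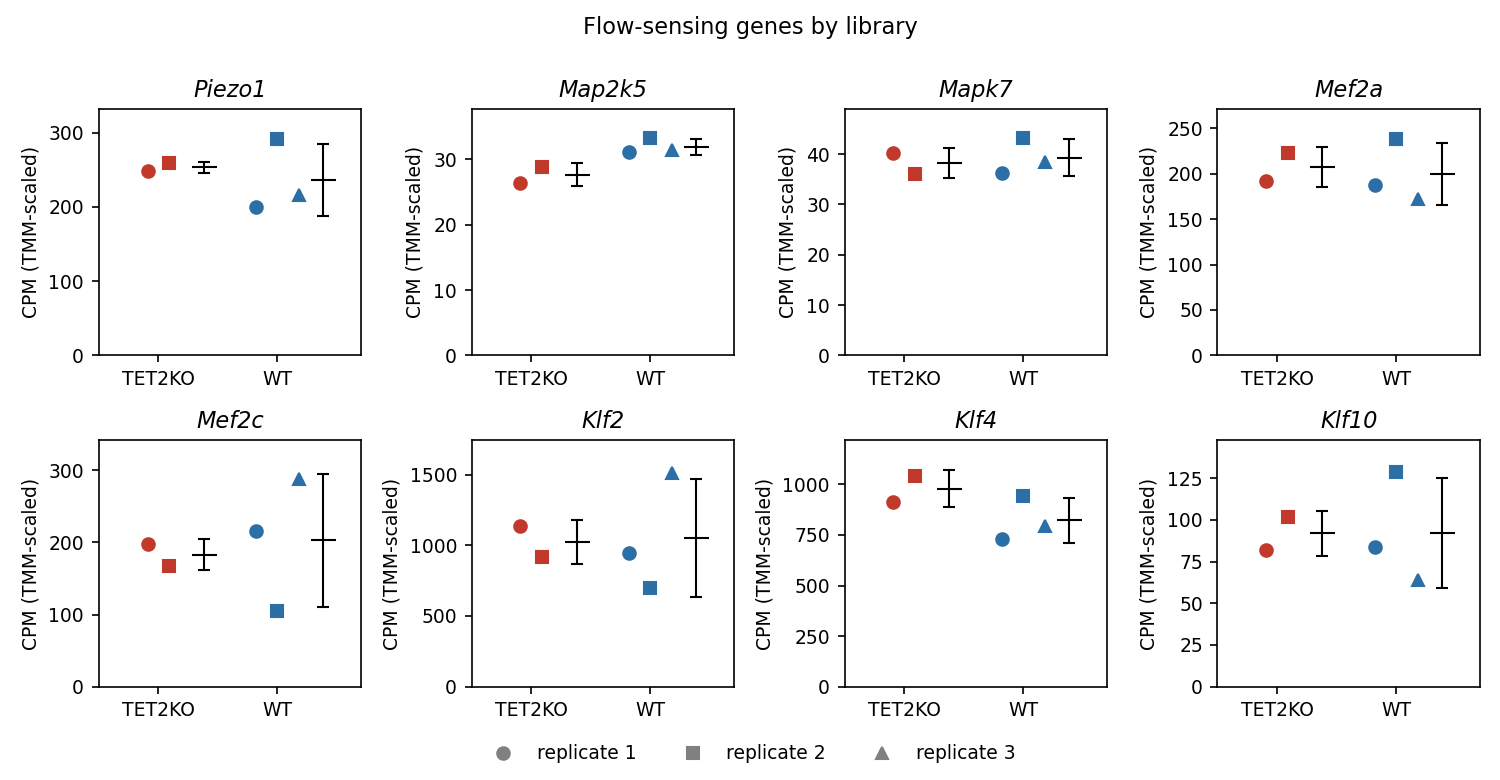
Level of each of the 8 genes in CPM (counts scaled to library size by TMM) in each library, TET2KO in red and WT in blue, with mean and SD in black (n = 2 and 3). The groups overlap for every gene but Map2k5, and WT replicates 2 and 3 hold the extremes of Mef2a, Mef2c, Klf2 and Klf10.

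By level, which can be compared between genes in TPM (a unit scaled to transcript length and depth), the 8 genes formed 3 tiers. Klf2 and Klf4 were among abundant transcripts, with means over the 5 libraries of 1925 and 976 TPM. Klf10, at 99.8 TPM, and Piezo1, at 81.6 TPM, followed. Mef2a (46.1 TPM), Mef2c (42.6 TPM), Map2k5 (31.2 TPM) and Mapk7 (29.6 TPM) were lowest. Klf2 exceeded Klf4 in 5 of 5 libraries, by 1.23 to 3.14 times, and Klf4 exceeded Klf10 by 7.34 to 12.4 times. Piezo1 exceeded Mef2a by 1.58 to 1.92 times in 5 of 5. The other neighbours in that order overlapped: Klf10 was above Piezo1 in 4 of 5 libraries, Mef2a above Mef2c in 3, Mef2c above Map2k5 in 4 and Map2k5 above Mapk7 in 4.

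At the start of the chain stands Piezo1 (ENSMUSG00000014444, chromosome 8, 122481698 to 122551329, minus strand, GRCm38), whose channel opens under membrane tension. It was at 248 and 259 CPM in the TET2KO libraries and at 201, 291 and 216 CPM in the WT libraries. Both TET2KO values lay inside the WT range, whose top was WT replicate 2. The log2 fold change was 0.10 (SE 0.21; edgeR adjusted p = 0.926), and its 95% interval ran from 0.742 to 1.55 times the WT level. Without WT replicate 2 the log2 fold change was 0.31 (SE 0.13; edgeR adjusted p = 0.50), with both TET2KO libraries above the 2 WT libraries left. After leaving out WT replicate 2 and rescaling the other 4 libraries, 4 of the 8 lay above in this way (Piezo1, Mef2a, Klf4 and Klf10) and 2 below (Map2k5 and Mef2c), beside 22.2% and 20.7% of all genes. After leaving out WT replicate 3 and rescaling, Klf2 lay above and Map2k5 below, beside 21% and 19.1% of all genes. On the CPM values printed here, scaled over all 5 libraries, Klf10 without WT replicate 2 and Klf2 without WT replicate 3 still overlapped. In TPM both TET2KO libraries (91.3 and 95.04 TPM) were above all 3 WT libraries (70.6, 77.2 and 74.0 TPM). On that scale 4 of the 8 lay above (Piezo1, Mapk7, Mef2a and Klf4) and none below, beside 20.8% and 2.3% of all genes. Piezo1 overlaps Ctu2 on the opposite strand, which had 771 to 1154 counts, while Piezo1 had 5728 to 8616. Without strand information reads of both cannot be told apart, nor can those of Mapk7 and Mfap4 (41 to 216 counts) or of Mef2a and Lysmd4 (144 to 218 counts). The genes nearest to Piezo1 in pattern over the 5 libraries were Plxnd1, Calu and Klhl7, with root mean square differences of 0.039, 0.042 and 0.044 in log2 CPM centred per gene, among 10268 genes. Plxnd1, a guidance receptor that also senses flow, is one of the flow sensors listed next.

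Other flow sensors are a list of 17 genes besides Piezo1. Of these 13 were above 0 on the log2 scale and none passed the edgeR test. The median log2 fold change was 0.24, and in 7 of 17 both TET2KO values exceeded every WT value, beside 12.4% of all genes. Cdh5 (VE-cadherin), Pecam1 and Kdr (VEGF receptor 2) form the junctional mechanosensory complex, with log2 fold changes of 0.81, 0.67 and 0.73. They also define endothelium, and the 18 endothelial markers were at 7338 and 7254 CPM in sum in TET2KO, against 3227 to 5556 CPM in WT. All 18 had TET2KO above WT without overlap, with a median log2 fold change of 0.75, and none passed the edgeR test. Markers of other lung cells stood apart too: all 4 mesothelium markers and 4 of 5 alveolar type 1 markers had both TET2KO libraries above all WT libraries, with medians of 1.64 and 1.09. The mesothelium sum was 21.4 and 31.1 CPM in TET2KO, against 10.4, 6.96 and 6.70 CPM in WT, and the alveolar type 1 sum was 81.8 and 137 CPM in TET2KO and 59.9, 118 and 61.5 CPM in WT. Gna11, a G-protein subunit below PIEZO1, had 0.49, while its relative Gnaq had 0.07. The ATP-gated channel gene P2rx4 had -0.31, Trpv4 had 0.31, and Piezo2 had 0.80, all without passing the test. More endothelial cells in an isolate and more RNA per cell cannot be told apart in bulk libraries, and the part of these marker differences in the values of the sensors was not tested.

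Next come the kinases. Map2k5 (ENSMUSG00000058444, chromosome 9, 63163768 to 63377902, minus strand) encodes MEK5, the kinase that activates ERK5. It was at 26.4 and 28.9 CPM in TET2KO, against 31.1, 33.3 and 31.4 CPM in WT, the single member whose groups did not overlap in CPM. The log2 fold change was -0.21 (SE 0.15; edgeR adjusted p = 0.864), with an interval of 0.668 to 1.125 times WT. In TPM the groups overlapped, at 29.8 and 32.6 TPM in TET2KO and 33.5, 27.1 and 33.0 TPM in WT, and the log2 fold change on log2(TPM + 1) was 0.005. Mapk7 (ENSMUSG00000001034, chromosome 11, 61488812 to 61494406, minus strand) encodes ERK5 itself, and it was at 40.3 and 36.1 CPM in TET2KO and at 36.3, 43.3 and 38.4 CPM in WT. Its groups overlapped in CPM, though not in TPM (33.5 and 29.96 TPM in TET2KO, against 28.9, 25.97 and 29.7 TPM in WT), with a log2 fold change of -0.04 (SE 0.16; edgeR adjusted p = 0.959) and an interval of 0.734 to 1.285 times WT.

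These 2 kinase genes were among the steadiest measured in TMM-scaled CPM. The SD of log2 CPM over the WT libraries was 0.053 for Map2k5 and 0.13 for Mapk7. Smaller values were found in 2.8% and 13.5% of genes tested, and the median over all genes was 0.374. In TPM the WT SD of Map2k5 was 3.59 at a mean of 31.2, larger than that of Piezo1, 3.28 at a mean of 73.9. That of Mapk7 was 1.95 at a mean of 28.2. The TPM ratio of Map2k5 to Mapk7 was 0.890 and 1.09 in TET2KO and 1.16, 1.04 and 1.11 in WT. The genes nearest to Mapk7 in pattern over the 5 libraries were Usp31, Foxred1 and Ago3, with root mean square differences of 0.016, 0.020 and 0.021 on the same scale.

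Above MEK5 sit the kinases MEKK2 and MEKK3 (Map3k2, Map3k3), and the CCM complex restrains MEKK3. Of the 6 genes in that list besides Map2k5 and Mapk7, none passed the edgeR test, and 2 were above 0. Map3k2 had a log2 fold change of -0.23, Map3k3 -0.13 and Pdcd10 (CCM3) -0.20, each with both TET2KO libraries below all WT libraries in CPM, beside 12.4% of all genes, and with overlap in TPM. Krit1 (CCM1) was at 0.01 and Ccm2 at -0.11, with overlap. Heg1, the membrane partner of KRIT1 and itself induced by KLF2, was at 0.63 (SE 0.30). Its level was 400 and 391 CPM in TET2KO, against 240, 179 and 349 CPM in WT.

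The MEF2 factors join the kinases to the KLF genes. Mef2a (ENSMUSG00000030557, chromosome 7, 67231163 to 67372858, minus strand) was at 191 and 223 CPM in TET2KO and at 188, 238 and 172 CPM in WT. The groups overlapped, with a log2 fold change of 0.05 (SE 0.20; edgeR adjusted p = 0.959) and an interval of 0.731 to 1.47 times WT. Mef2c (ENSMUSG00000005583, chromosome 13, 83504034 to 83667080, plus strand) was at 198 and 168 CPM in TET2KO and at 216, 105 and 289 CPM in WT. The 3 WT libraries of Mef2c spanned 2.75 times and enclosed both TET2KO libraries. Its log2 fold change was -0.15 (SE 0.42; edgeR adjusted p = 0.947), with an interval of 0.437 to 1.86 times WT, the widest of the 8 on the log2 scale.

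The direction of Mef2c depended on which WT library was kept. Its log2 fold change was -0.44 (SE 0.19; edgeR adjusted p = 0.51) without WT replicate 2, and 0.23 (SE 0.37; edgeR adjusted p = 0.861) without WT replicate 3. The authors' deposited table, with WT replicate 3 on the TET2KO side, lists 0.46 for it (adjusted p = 0.615). The summed markers of B cells and of T cells took the same order over the libraries, while those of NK cells, highest in WT replicate 1, did not. The sum of 7 B cell markers was 3596 and 2269 CPM in TET2KO and 4159, 1480 and 5205 CPM in WT, and the sum of 10 T cell markers was 1145 and 948.8 CPM in TET2KO and 1194, 688 and 1359 CPM in WT. Mef2c ranked the 5 libraries exactly as both sums did. Of 14 marker sums, counting one of immediate early genes, those of T and B cells were nearest to Mef2c, at 0.154 and 0.209 root mean square in centred log2 CPM. Their part in the Mef2c values was not tested. The genes nearest to Mef2c were Zfp36l1, Trim59 and Traf3ip2, at 0.025, 0.035 and 0.040.

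Mef2d, the most abundant MEF2 gene here at a mean of 262 TPM, had a log2 fold change of -0.17, and Mef2b, at a mean of 0.225 TPM, was too low to be tested. The class IIa histone deacetylases hold MEF2 factors inactive until they leave the nucleus. Hdac7, the family member of endothelium, had a log2 fold change of 0.60 (SE 0.27), at 337 and 317 CPM in TET2KO and 218, 153 and 274 CPM in WT. Hdac4, Hdac5 and Hdac9 had -0.34, 0.04 and -0.06, and Hdac4 was at 0.37 without WT replicate 2. None of these passed the edgeR test.

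**Figure D2:**
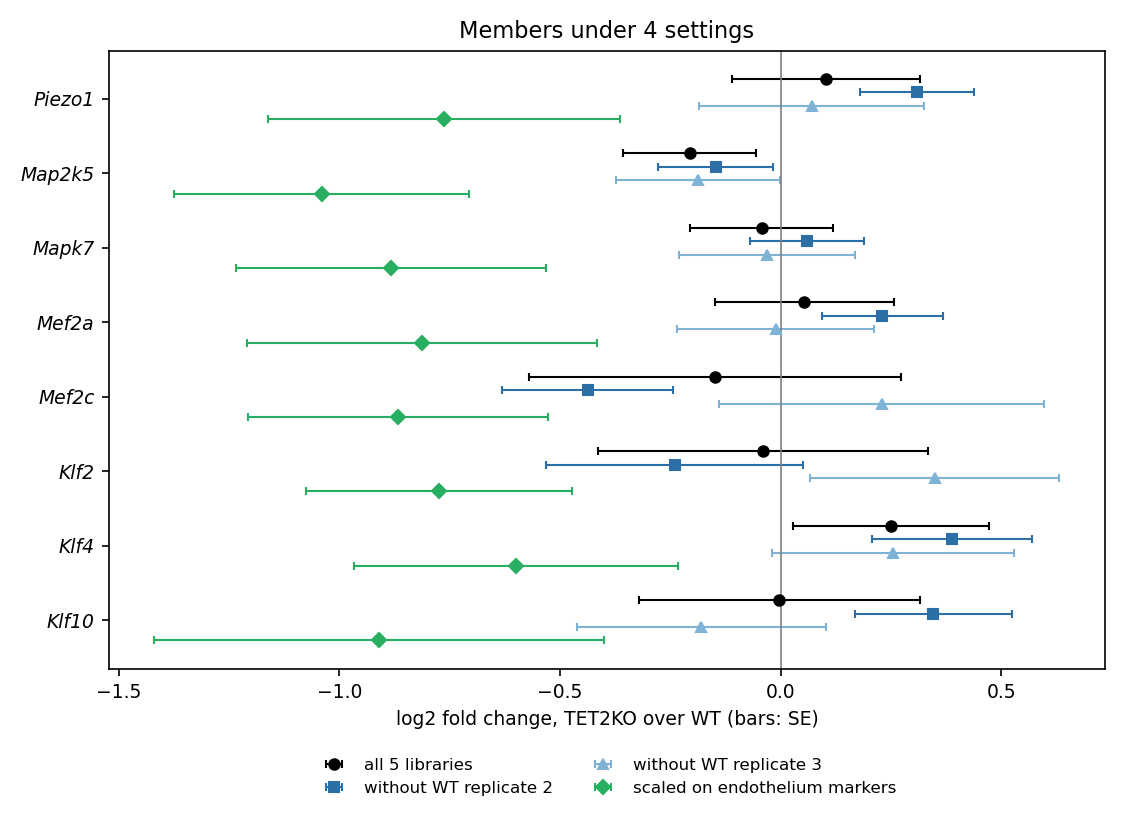
Log2 fold change of TET2KO over WT with its SE for the 8 genes, in all 5 libraries (black), without WT replicate 2 (dark blue), without WT replicate 3 (light blue) and with libraries scaled to equal endothelial markers (green). Mapk7, Mef2a, Mef2c, Klf2 and Klf10 change sign between the blue sets, and all 8 lie below 0 when scaled on endothelium. In that scaling the median was -0.84 for the 8 genes and -0.89 for all genes tested.

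At the end of the chain, Klf2 (ENSMUSG00000055148, chromosome 8, 72319033 to 72321656, plus strand) is known to be driven by ERK5 through a MEF2 site in its promoter. The upstream sequences of Klf2 and Klf4 are shown because they differ in this element. Each covers 200 bases before the RefSeq transcript start (GRCm38.p6), read 5′ to 3′ on the gene's strand, chr8:72318862-72319061 on the plus strand for Klf2 and chr4:55532476-55532675 on the minus strand for Klf4. Capitals mark a match to the core of a MEF2 site, searched as CTA, any 4 bases and TAG, which reads the same on both strands.
Klf2: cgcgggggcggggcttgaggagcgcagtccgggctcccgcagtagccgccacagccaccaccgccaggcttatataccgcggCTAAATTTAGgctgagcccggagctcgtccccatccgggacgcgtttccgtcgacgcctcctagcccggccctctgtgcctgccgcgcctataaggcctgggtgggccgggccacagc
Klf4: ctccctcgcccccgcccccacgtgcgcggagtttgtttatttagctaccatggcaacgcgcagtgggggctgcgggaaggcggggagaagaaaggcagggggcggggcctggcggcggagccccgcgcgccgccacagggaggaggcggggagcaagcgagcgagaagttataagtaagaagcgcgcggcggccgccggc
The Klf2 match, CTAAATTTAG, begins 118 bases before the transcript start. Of 32851 promoter windows of 300 bases, 3.69% held the motif. Among the 7 members with a window, Klf2 and Mef2a had it, the Mef2a match lying across the transcript start. No match in the Klf4 window says only that these letters are not there.

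Klf2 was at 1134 and 914 CPM in TET2KO and at 945, 700 and 1512 CPM in WT. The lowest and the highest library were both WT, 2.16 times apart, with the TET2KO libraries between. The log2 fold change was -0.04 (SE 0.37; edgeR adjusted p = 0.987), with an interval of 0.511 to 1.85 times WT. It was -0.24 (SE 0.29; edgeR adjusted p = 0.821) without WT replicate 2 and 0.35 (SE 0.28; edgeR adjusted p = 0.716) without WT replicate 3. The authors' deposited table lists 0.55 (adjusted p = 0.373) for its own split. Klf2 and Mef2c shared their extremes, WT replicate 3 at the top and WT replicate 2 at the bottom. Mef2c was the member nearest to Klf2, at 0.197 root mean square, and 552 other genes were nearer still. The nearest were Tut1, Tfam and Fam118a, at 0.034, 0.038 and 0.043. Of the marker sums, that of T cells was nearest to Klf2, at 0.162, and that of endothelium was at 0.400. Klf2 was 99% and 96.4% of the T cell sum in TET2KO and 79.1% to 111% in WT, while it was 15.45% and 12.6% of the endothelial sum in TET2KO and 21.7% to 27.2% in WT. The part of T cells in the Klf2 values was not tested.

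Klf4 (ENSMUSG00000003032, chromosome 4, 55527143 to 55532466, minus strand) had the largest positive log2 fold change of the 8. It was at 913 and 1043 CPM in TET2KO and at 729, 943 and 795 CPM in WT. WT replicate 2 lay above TET2KO replicate 1, so the groups overlapped in CPM. The log2 fold change was 0.25 (SE 0.22; edgeR adjusted p = 0.864), with an interval of 0.811 to 1.74 times WT. In TPM the groups did not overlap, at 1095 and 1249 TPM in TET2KO and 836, 815 and 887 TPM in WT. Without WT replicate 2 the log2 fold change was 0.39 (SE 0.18; edgeR adjusted p = 0.53).

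Klf4 kept a nearly fixed proportion to the summed level of the immediate early genes. The sum of 17 such genes, Fos, Jun and Egr1 among them and Klf4 not, was 21300 and 23940 CPM in TET2KO and 17100, 22060 and 18530 CPM in WT. Klf4 was 4.29% and 4.36% of that sum in TET2KO and 4.26%, 4.28% and 4.29% in WT. The root mean square difference was 0.011 in centred log2 CPM. Of the 10268 single genes compared, Lpin2 was nearest at 0.043, but a sum over 17 genes cannot be ranked with single genes. Of the 14 marker sums, this one was also nearest to Piezo1, Mef2a, Mapk7 and Map2k5, at 0.0925, 0.121, 0.176 and 0.235. The difference is also small between any 2 quantities that vary little, so for Mapk7 and Map2k5 it shows no shared pattern. Map2k5 was lower in both TET2KO libraries than in every WT library, while the sum was highest in TET2KO replicate 2. Of the 17, 13 were above 0 on the log2 scale, with a median log2 fold change of 0.16, and none passed the edgeR test. Their log2 fold changes ran from -0.15 for Junb to 0.83 for Egr1. The part of their joint level in the Klf4 values was not tested.

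**Figure D3:**
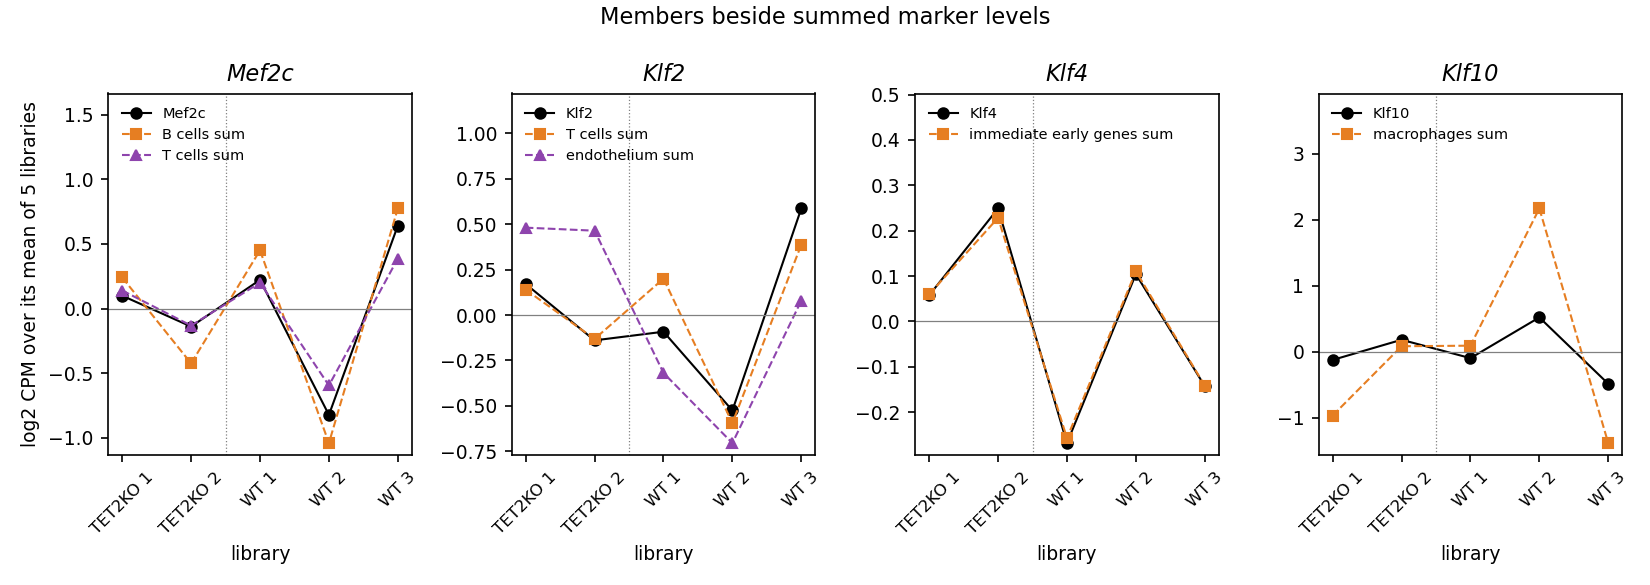
Levels of Mef2c, Klf2, Klf4 and Klf10 in each library (black) beside the summed CPM of marker lists, as log2 of CPM over its geometric mean of the 5 libraries, TET2KO libraries left of the dotted line. Mef2c runs near the T cell and B cell sums, Klf2 runs near the T cell sum, and Klf4 lies on the immediate early sum (4.26% to 4.36% of it). The macrophage sum peaks with Klf10 in WT replicate 2 but spans a far wider range (0.926 root mean square apart). That peak is mostly Chil3.

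Klf10 (ENSMUSG00000037465, chromosome 15, 38291463 to 38300706, minus strand) is induced by TGF-beta. It was at 82.2 and 102 CPM in TET2KO and at 83.7, 128 and 63.9 CPM in WT. Its extremes were both WT and opposite to those of Klf2: WT replicate 2 was highest and WT replicate 3 lowest. The log2 fold change was -0.003 (SE 0.32; edgeR adjusted p = 0.998), with an interval of 0.577 to 1.73 times WT. It was 0.35 (SE 0.18; edgeR adjusted p = 0.558) without WT replicate 2 and -0.18 (SE 0.28; edgeR adjusted p = 0.856) without WT replicate 3. The macrophage sum was 2414 and 4997 CPM in TET2KO and 5027, 21230 and 1807 CPM in WT. It was highest and lowest in the same libraries as Klf10, and Chil3 alone was 15517 CPM of it in WT replicate 2. At 0.926 root mean square it was only the 12th nearest of the 14 sums. The sum of pericyte and smooth muscle markers was nearest to Klf10 of the 14, at 0.085, and was 21.7 and 24.1 CPM in TET2KO and 18.7, 31.8 and 14.8 CPM in WT. Of it, Cspg4 alone was 17.8 CPM in WT replicate 2, against 1.33 to 3.62 CPM in the other libraries. The peak of the sum in WT replicate 2 is mostly this 1 gene, and the likeness without it was not computed. The part of these markers in the Klf10 values was not tested.

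The balance between paired factors spread widely among the WT libraries. The TPM ratio of Klf2 to Klf4 was 2.05 and 1.45 in TET2KO and 2.14, 1.23 and 3.14 in WT. The TPM ratio of Mef2c to Mef2a was 0.968 and 0.704 in TET2KO and 1.07, 0.411 and 1.56 in WT. Both ratios were lowest in WT replicate 2 and highest in WT replicate 3, with TET2KO inside the WT range.

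Klf2 and Klf4 together made up 68.9% and 67.6% of the summed TPM of the 17 KLF genes in TET2KO, and 66.8%, 61.5% and 71.9% in WT. Of the other 14 genes of the family, 12 could be tested, 8 were above 0 and none passed the edgeR test. The 4 most abundant of them were Klf6 (mean 673 TPM), Klf13 (208 TPM), Klf9 (106 TPM) and Klf3 (98.9 TPM), with log2 fold changes of -0.15, -0.11, 0.54 and 0.08. Klf6 is an injury-responsive factor, and Klf9 a glucocorticoid-induced one. All 4 overlapped between the groups.

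Genes below KLF2 and KLF4 had mostly positive log2 fold changes, whether they are known to be raised or lowered by steady flow, and none passed the edgeR test. Of 18 genes that flow or KLF2 and KLF4 raise, 13 were above 0, with a median log2 fold change of 0.59. Of 12 that they lower, 11 were above 0, with a median of 0.67. Over all genes tested, 41.6% were above 0. The groups stood apart, with TET2KO above, in 9 of the 18 raised genes and in 5 of the 12 lowered ones, beside 12.4% of all genes. With libraries scaled to equal endothelial markers the 2 medians were -0.16 and -0.15, below 0, beside -0.89 for all genes. Without WT replicate 3 the median of the raised genes was 0.93. The median of the lowered genes was 0.32 without TET2KO replicate 2 and 0.44 without WT replicate 1.

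Among the raised genes, Nos3, which makes nitric oxide in endothelium, had 33.4 and 44.0 CPM in TET2KO, against 23.4, 18.4 and 24.5 CPM in WT. Its log2 fold change was 0.81 (SE 0.21; edgeR adjusted p = 0.74). Slco2a1, a prostaglandin transporter, was at 662 and 638 CPM in TET2KO, against 341, 278 and 453 CPM in WT. Aqp1, a water channel, had a log2 fold change of 0.64, and Thbd, the anticoagulant receptor thrombomodulin, one of 0.44, both without overlap of the groups. S1pr1, a receptor that stabilises junctions, had 0.26 and the lipid phosphatase Plpp3 -0.17, and without WT replicate 2 they had -0.04 and 0.55. The antioxidant enzymes Hmox1 and Nqo1 had -1.06 and -0.88, with their highest libraries in WT replicate 2, and without it they had 0.63 and 0.26.

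Among the lowered genes, Edn1, which encodes the vasoconstrictor endothelin-1, was at 102.4 and 101.9 CPM in TET2KO, against 27.8, 48.5 and 84.4 CPM in WT. The groups did not overlap, and WT replicate 3 stood nearest to TET2KO. Ccl2, a monocyte chemokine, was at 15.0 and 21.3 CPM in TET2KO, against 9.56, 13.0 and 9.78 CPM in WT. Vcam1, an adhesion molecule for leukocytes, and Angpt2, a ligand that loosens endothelium, had log2 fold changes of 0.59 and 0.31, with overlap, and Vcam1 had -0.38 without TET2KO replicate 2. The endothelial markers lay on the same side, with a median of 0.75, and their part in these values was not tested.

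**Figure D4:**
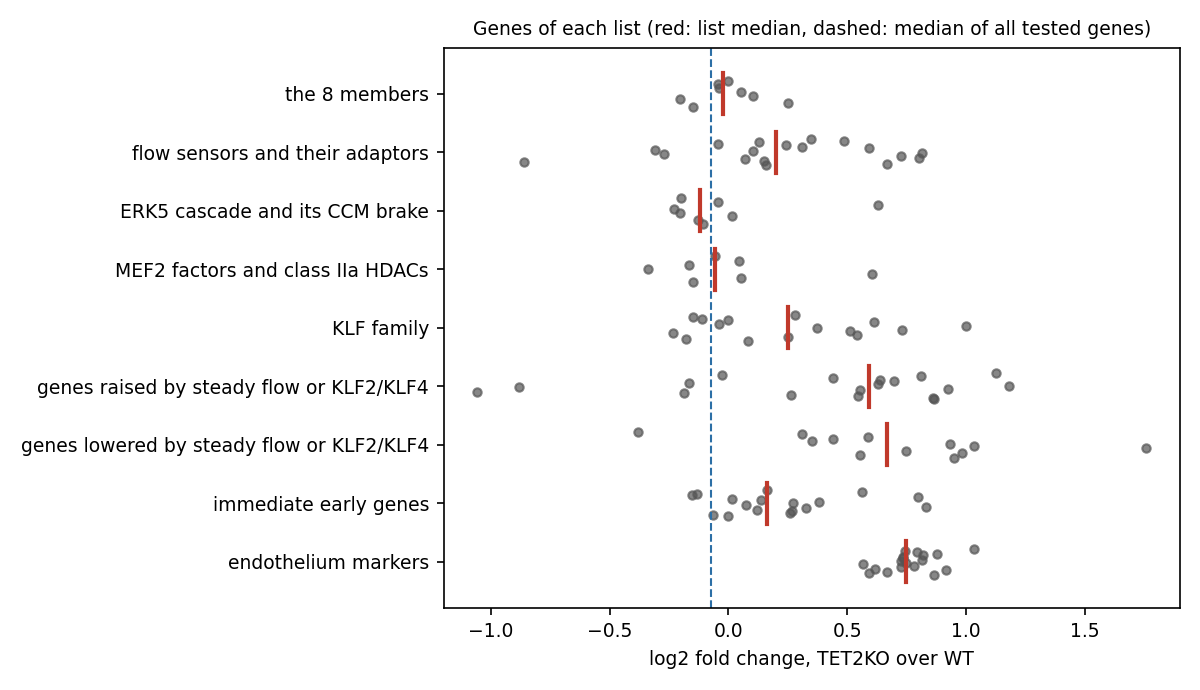
Log2 fold change of TET2KO over WT for each tested gene (dots) of the 8 members, of 7 pathway lists and of the endothelial markers, with each list's median in red and the median of all 18727 genes dashed. The members lie around 0, while raised genes, lowered genes and endothelial markers have medians of 0.59, 0.67 and 0.75.

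Set against endothelial markers, the log2 fold changes of all 8 members were negative. With libraries scaled to equal endothelial markers their log2 fold changes ran from -1.04 for Map2k5 to -0.60 for Klf4, with a median of -0.84, beside -0.89 for all genes tested. None passed, with edgeR adjusted p of 0.125 to 0.227. Unadjusted edgeR p was under 0.05 for 4 of the 8, beside 7186 of all 18727 genes. In that scaling 7 of the 8, all but Klf10, had TET2KO below WT without overlap, beside 58.6% of all genes. None had it above, beside 0.913% of all genes. As a share of the endothelial sum, 6 of the 8 had both TET2KO libraries below all WT libraries, Klf4 and Klf10 being the exceptions, and none had them above, beside 57.4% and 0.897% of all genes. Piezo1 was 3.38% and 3.57% of that sum in TET2KO, against 4.76%, 9.02% and 3.89% in WT.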

How the data were processed

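The tools named in the submitters' processing notes are STAR 2.5.2b, Trimmomatic 0.36, DESeq2 and, from Subread 1.5.2, featureCounts, with GRCm38 as build; the strand setting is not given in the sources used here. The authors deposited read counts per gene and TPM values. Their comparison table holds, per the file headers, log2 fold changes and p-values, with counts divided by size factors, a normalized signal.

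Counts were tested with edgeR 4.0.16 (R 4.3.3; filterByExpr, TMM, quasi-likelihood, genotype as the only term), adjusted by Benjamini-Hochberg over 18727 genes. Adjusted p under 0.05 was the threshold. SE was the log2 fold change over the square root of F, and CPM used TMM-scaled totals. Fold changes are TET2KO over WT. The fit was checked on simulated counts. The biological coefficient of variation was 0.339. At least 58.2% of genes with over 100 counts differed beyond counting noise in every pair of libraries, so all were kept.

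The members and lists were chosen with earlier results of these data known. Named list genes were chosen by role (KLF genes by mean TPM, nearest genes as the 3 smallest root mean square differences), and pairings of members with marker sums after their values were seen. One gene named by that rule is not reported here. Coordinates are GENCODE M21, promoters RefSeq (GRCm38.p6), matched by symbol for 7 of 8 members. Alternatives were DESeq2 1.42.0, limma 3.58.1 (voom, and log2(TPM + 1) or log2(TPM + 0.1)), legacy spread, other scalings and filters, each library left out, and a replicate block.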

Additional observations from a re-analysis of the deposited data

How the results depend on the processing

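No member passed the threshold in any of 17 alternatives, and the lowest adjusted p was 0.125. Of 136 recomputed fold changes, 40 changed sign. DESeq2 called 61 genes, and the other alternatives called 0. Scaled on endothelial markers, Piezo1 was at -0.76, Mef2a at -0.81 and Klf4 at -0.60. On log2(TPM + 1) and log2(TPM + 0.1), Map2k5 was at 0.0053 and 0.0056, Mapk7 at 0.17 and 0.17, Mef2c at 0.17 and 0.18, Klf2 at 0.24 and 0.24, and Klf10 at 0.26 and 0.26. With upper quartile, library totals and no filter, Mapk7 was at 0.048, 0.11 and 0.0018, Klf2 at 0.022, 0.070 and 0.0019, and Klf10 at 0.11, 0.17 and 0.044. With limma-voom Klf2 was at 0.027 and Klf10 at 0.049. Klf10 was at 0.011 with DESeq2, 0.011 with RLE and 0.015 with at least 1 CPM in 2 libraries. With one library left out in turn, the fold changes ranged from -0.00046 to 0.31 for Piezo1, -0.27 to -0.15 for Map2k5, -0.13 to 0.060 for Mapk7, -0.060 to 0.23 for Mef2a, -0.44 to 0.23 for Mef2c, -0.24 to 0.35 for Klf2, 0.15 to 0.39 for Klf4 and -0.18 to 0.35 for Klf10. The cause of these sign changes was not tested.

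Members with TET2KO above WT numbered 2 by upper quartile, 3 by library totals and 1 with no filter. The shares of all genes beside these were 14.7%, 17.2% and 14.1%. In TPM on both pseudocounts 4 members lay above, beside 20.8% of all genes. With a library left out 0 to 4 members did, beside 17.2% to 22.2% of all genes. The labels do not say whether equal replicate numbers pair the libraries. Correlations of deviations from the group mean for equal numbers were 0.22 and 0.493. The deviations of the 2 TET2KO libraries mirror each other, so these correlations cannot decide on pairing. With the replicate block, in which WT replicate 3 has no partner and adds nothing, Mef2a was at -0.035, Mef2c at 0.28 and Klf2 at 0.32, and 0 genes were called. Of 340 recomputed list medians, 34 moved past the spread between WT libraries and 46 changed sign. The median of all genes was -0.075 with TMM, 0.06 with library totals, 0.13 on log2(TPM + 1) and -0.89 scaled on endothelial markers. With 2 and 3 libraries the intervals of the members are wide, from 0.668 to 1.125 times WT for Map2k5 up to 0.437 to 1.86 times WT for Mef2c, and differences within them were not detectable.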
